A study of Mus musculus with 16 samples.

Results

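The genes described here are 8 dual specificity phosphatases (Dusp1, Dusp4, Dusp5, Dusp6, Dusp8, Dusp10, Dusp14 and Dusp16) and 2 Sprouty genes (Spry2 and Spry4), 10 of the 19938 genes compared in the series. Each is represented by the probe set whose single gene symbol in the platform's table is that gene, and where a gene has several such probe sets by its brightest one on average, which applied to Dusp8. No filter on low values was used, so all 10 are described. Mouse embryonic fibroblasts, connective tissue cells in culture, gave total RNA from 16 plates for Affymetrix whole-transcript arrays, 1 array per plate. The 4 groups, each with 4 plates, were Atf5-knockdown cells (ATF5-KD shRNA) with MG132, control cells (wild type with a scramble shRNA) with MG132, Atf5-knockdown cells with DMSO vehicle, and control cells with DMSO vehicle. MG132, a proteasome inhibitor of the peptide aldehyde class, was given at 1 µM, and both treatments lasted 8 h. Both lines thus carry a short hairpin RNA, and the knockdown line stably expresses one that targets Atf5, which encodes an ATF/CREB family factor. Each genotype is 1 labelled line, so the level of Atf5 and any other difference between the lines cannot be told apart.

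MAP kinases (ERK, JNK and p38) carry growth factor and stress signals to the nucleus and are switched on by phosphorylation of a threonine and a tyrosine. Dual specificity phosphatases remove both phosphates, and several of their genes are themselves induced by the kinases that they switch off, which makes a negative feedback loop. Sprouty proteins are feedback inhibitors further up, between growth factor receptors and the RAS and RAF steps, and their genes are induced by ERK signalling in fibroblasts. All measurements here are of RNA, and kinase activity was not measured.

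The values are log2 probe set intensities, and the number of arrays limits their precision. Array medians lay between 7.71 and 7.82, and arrays of 1 group correlated at r = 0.9928 to 0.9982 across probe sets, against 0.9789 to 0.9935 between groups. Atf5 averaged 8.46 ± 0.03 in knockdown and 8.77 ± 0.10 in control cells with MG132, and 8.35 ± 0.06 in knockdown and 8.57 ± 0.10 in control cells with vehicle (SD, n = 4 each). On these arrays it was thus only 1.24-fold lower in knockdown cells with MG132 (limma adjusted p = 0.000148) and 1.16-fold lower with vehicle (limma adjusted p = 0.00321). The fibroblast genes Vim, Fn1, S100a4, Col1a1 and Col1a2 averaged 14.16, 13.62, 12.95, 12.00 and 11.61 over all arrays. The rest of the fibroblast list averaged less: Pdgfrb 10.4, Col3a1 8.94, Thy1 8.57, Pdgfra 8.39, Dcn 7.41, Postn 6.09 and Lum 4.75. Detection calls were not used, and no gene is called absent. The mean over 12 fibroblast markers was 9.87 to 9.95 in knockdown and 9.71 to 9.73 in control cells with MG132, and 10.05 to 10.11 in knockdown and 9.91 to 9.92 in control cells with vehicle. The means over 6 lists of markers of other cell types (macrophage, endothelium, epithelium, skeletal muscle, adipocyte, neuron and glia) lay between 6.53 and 8.02 on every array. Single genes of these lists averaged up to 9.36 (Map2, neuron and glia), above several of the fibroblast genes. The part of these marker levels in the results was not tested, and in bulk samples fewer cells of a type cannot be told apart from less RNA per cell. Within the groups the arrays spread along a gradient that held 37.1% of the variance there, with control MG132 array 4, knockdown vehicle array 1 and control vehicle arrays 4 and 1 lowest on it. The correlation of the genes described here with that gradient ran from -0.65 (Dusp8) and -0.63 (Dusp5) to 0.47 (Dusp16) over 16 arrays. Leaving those 4 arrays out changed 1 of the calls below, which is given beside it.

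The 250 bases before a RefSeq start site were searched on both strands for 6 motifs, in the 8 of the 10 genes found in the RefSeq promoter table (GRCm38.p6). Dusp4 and Spry4 were not found there, so their promoters were not searched. The promoters of Dusp1, Dusp8 and Dusp5 are shown because they hold a site of the ATF/CREB family or of serum response factor. Those of Dusp6 and Spry2 are shown as a pair of genes with a like course over the arrays, and that of Dusp10 because its change with MG132 differed between the lines in the other direction than those of the rest that passed. Capitals mark a motif match. The Dusp1 promoter (chr17:26508473-26508722, minus strand) and the Dusp8 promoter (chr7:142095285-142095534, minus strand) hold the cyclic AMP response element TGACGTCA, which members of the ATF/CREB family bind. The Dusp5 promoter (chr19:53528895-53529144, plus strand) holds 2 CArG boxes, the binding site of serum response factor. The Dusp6 promoter (chr10:99262981-99263230, plus strand), the Spry2 promoter (chr14:105896820-105897069, minus strand) and the Dusp10 promoter (chr1:184034131-184034380, plus strand) hold no match. All are written 5′ to 3′ along the gene.
Dusp1: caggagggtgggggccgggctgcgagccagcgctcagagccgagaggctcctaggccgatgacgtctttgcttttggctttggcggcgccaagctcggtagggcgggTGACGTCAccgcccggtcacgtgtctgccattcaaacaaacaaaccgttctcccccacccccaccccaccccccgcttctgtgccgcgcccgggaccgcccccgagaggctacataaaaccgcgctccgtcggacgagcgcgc
Dusp8: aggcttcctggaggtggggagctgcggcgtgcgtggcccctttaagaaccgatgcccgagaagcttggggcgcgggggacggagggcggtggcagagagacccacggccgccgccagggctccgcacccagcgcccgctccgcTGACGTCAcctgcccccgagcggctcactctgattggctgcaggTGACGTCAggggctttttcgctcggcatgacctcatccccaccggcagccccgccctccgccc
Dusp5: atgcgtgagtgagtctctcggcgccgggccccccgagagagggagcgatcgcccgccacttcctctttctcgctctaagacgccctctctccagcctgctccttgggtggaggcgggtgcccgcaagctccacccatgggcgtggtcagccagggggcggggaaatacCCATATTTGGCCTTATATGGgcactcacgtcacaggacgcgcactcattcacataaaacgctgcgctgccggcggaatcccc
Dusp6: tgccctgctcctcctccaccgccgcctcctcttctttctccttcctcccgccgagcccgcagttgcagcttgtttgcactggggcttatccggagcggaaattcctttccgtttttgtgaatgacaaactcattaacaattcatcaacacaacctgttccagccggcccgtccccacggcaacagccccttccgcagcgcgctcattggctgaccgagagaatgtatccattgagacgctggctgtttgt
Spry2: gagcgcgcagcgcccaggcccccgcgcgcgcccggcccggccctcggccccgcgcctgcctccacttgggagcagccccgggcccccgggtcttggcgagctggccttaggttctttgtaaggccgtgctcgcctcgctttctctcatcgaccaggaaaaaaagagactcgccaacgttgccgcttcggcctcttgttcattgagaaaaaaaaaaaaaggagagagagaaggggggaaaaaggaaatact
Dusp10: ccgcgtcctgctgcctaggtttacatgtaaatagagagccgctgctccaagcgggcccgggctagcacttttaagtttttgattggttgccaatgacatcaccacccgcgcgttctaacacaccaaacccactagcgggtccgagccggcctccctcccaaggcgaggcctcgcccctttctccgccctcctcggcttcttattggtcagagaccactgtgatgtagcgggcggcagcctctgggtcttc

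The element TGACGTCA begins 143 bases before the start in Dusp1, and 107 and 63 bases before it in Dusp8. It was found in 1.55% of all 32851 promoter windows of the same length. The windows of Dusp8, Dusp14 and Dusp16, all on the minus strand, lie inside the RefSeq span of the gene. For these genes the start used is thus not the most upstream one. The CArG boxes of Dusp5 begin 82 and 72 bases before the start and lie next to each other, and 1.47% of all windows held such a box. Of the other motifs, the ETS site CCGGAA was in Dusp14 (12.0% of all windows) and the heat shock element pair GAANNTTC in Dusp16 (6.69%). The AP-1 site TGANTCA (6.75%) and the ATF4-C/EBP composite site TGATGNAA (3.45%) were in 0 of the 8. No match of 1 motif overlapped a match of another in these 8 windows. A match describes the letters of the window, and binding was not measured.

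With MG132 the phosphatase and Sprouty genes did not move as a block in either line. In knockdown cells 4 of 10 rose and 5 fell (limma, false discovery rate 5%), where 16.4% of all genes rose and 24.3% fell, and the median log2 fold change was -0.10 against 0.03 over all genes. In control cells 3 rose and 6 fell, against 16.8% and 19.0% of all genes, with a median of -0.40 against 0.03. With each array centred on its median, the share of higher genes among all those called with MG132 was 24.0% in knockdown cells, against 40.3% uncentred, and 31.7% in control cells, against 46.8% uncentred. The lines differed from each other as well. With MG132, 3 of the genes were higher and 5 lower in knockdown than in control cells (17.7% and 20.3% of all genes), and with vehicle 2 were higher and 7 lower (21.5% and 17.9%). The change with MG132 differed between the lines for 9 of the 10, being higher in knockdown cells for 8 and lower for 1, where 4.45% and 10.1% of all genes passed in these directions and 14.6% in either. This difference of the responses is the change in knockdown cells minus the change in control cells. It equals the difference between the lines with MG132 minus that with vehicle. The 5 comparisons share arrays, so their values for 1 gene are not independent of each other. The 10 genes were chosen with earlier results of these data known, so the counts beside all genes are descriptive.

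**Figure D1:**
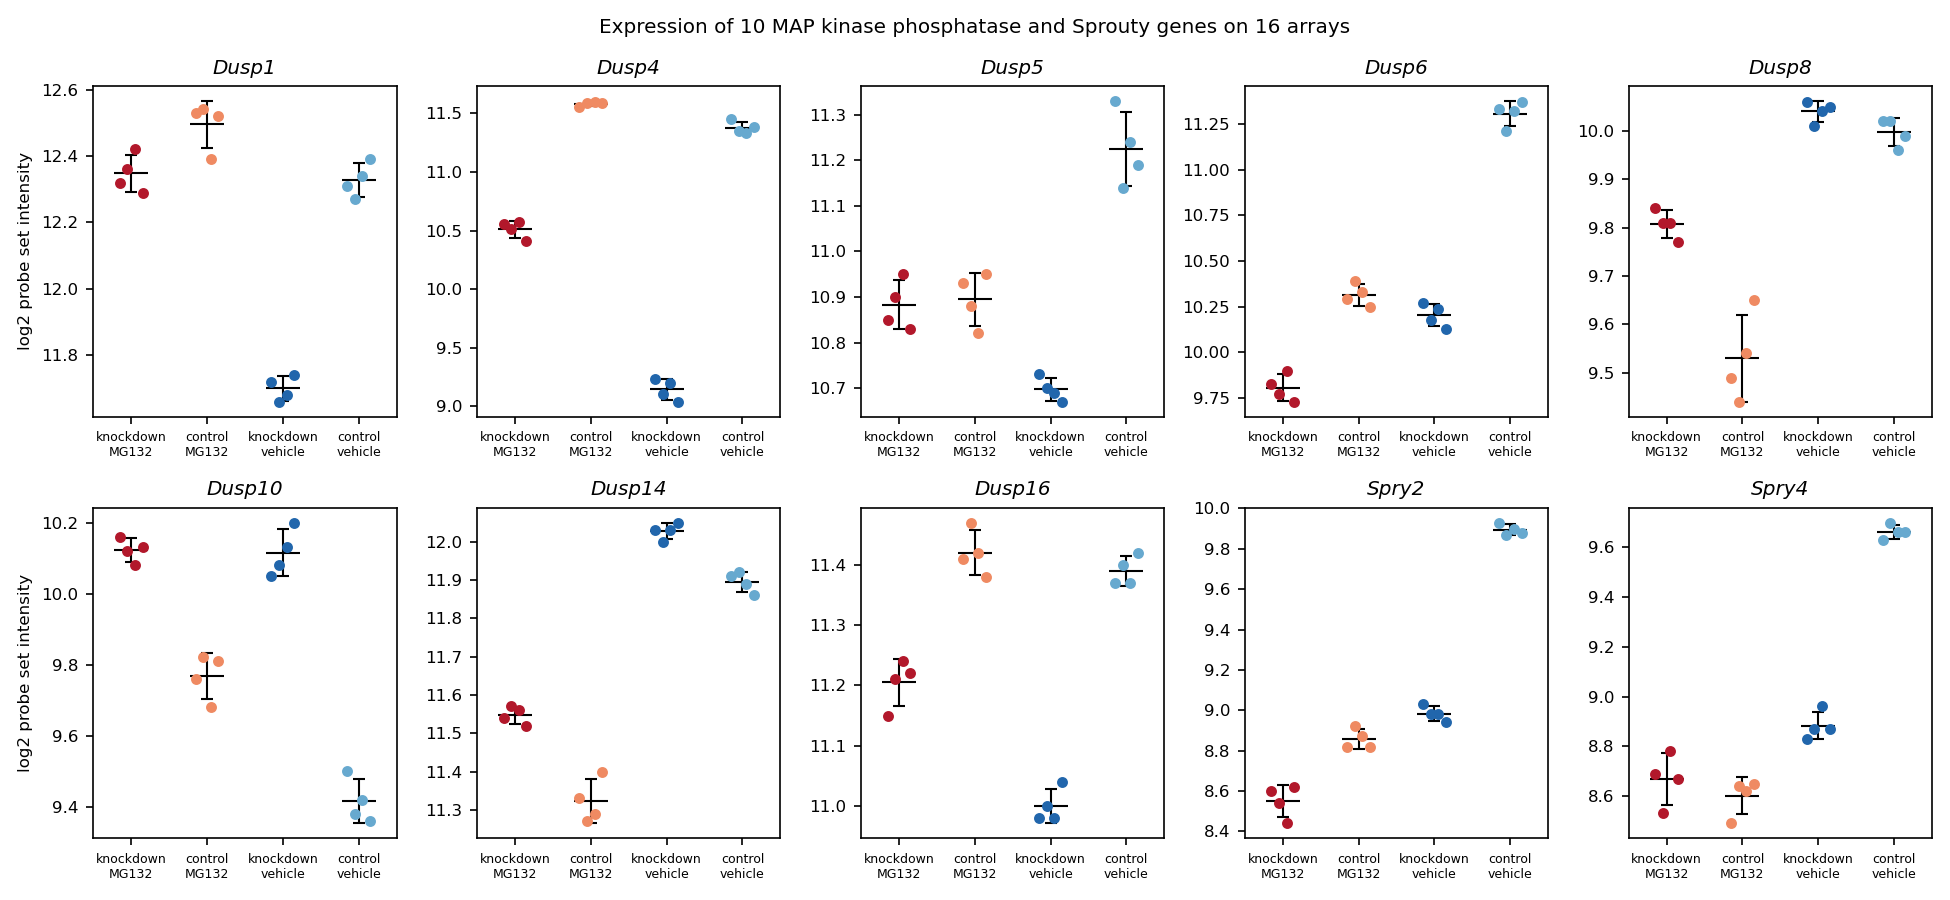
Log2 probe set intensity of each gene (vertical axes, a separate range per gene) on the 4 arrays of each group (coloured points), with the group mean (black bar) and its SD (error bars). Dusp4 was highest in both groups of control cells and lowest in knockdown cells with vehicle, and Dusp6, Spry2 and Spry4 were highest in control cells with vehicle.

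Of the genes described here, Dusp1, Dusp4 and Dusp5 encode nuclear phosphatases that growth factors and stress induce. Dusp1, which acts on p38 and JNK as well as ERK, read 12.32, 12.36, 12.42 and 12.29 in knockdown cells with MG132 and 12.53, 12.54, 12.39 and 12.52 in control cells with MG132. With vehicle it read 11.72, 11.66, 11.68 and 11.74 in knockdown cells and 12.31, 12.27, 12.34 and 12.39 in control cells. The knockdown arrays with vehicle lay apart below all others, and the knockdown arrays with MG132 overlapped those of control cells in both treatments. MG132 raised Dusp1 in knockdown cells 1.57-fold (log2 fold change 0.65 ± 0.04, limma SE, adjusted p = 1.98e-09). In control cells the rise was 0.17 ± 0.04 (limma adjusted p = 0.00384), and the arrays overlapped (exact two-sided permutation p = 0.0571). With each array centred on its median the control value was 0.115 and did not pass (limma adjusted p = 0.0627). The knockdown line was lower with vehicle (log2 difference -0.63 ± 0.04, limma adjusted p = 1.41e-09) and with MG132 (-0.15 ± 0.04, limma adjusted p = 0.00868). The responses differed by 0.48 (95% interval 0.36 to 0.60).

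Dusp4, an ERK phosphatase that is also an ERK-induced gene, had the largest difference between the lines among the 10. It read 10.56, 10.51, 10.57 and 10.41 in knockdown cells with MG132, against 11.55, 11.59, 11.60 and 11.59 in control cells with MG132. With vehicle the values were 9.23, 9.11, 9.20 and 9.04 in knockdown cells, against 11.45, 11.35, 11.33 and 11.38 in control cells. No group overlapped another, and the order was control with MG132, control with vehicle, knockdown with MG132 and knockdown with vehicle. Dusp4 was 4.70-fold lower in knockdown than in control cells with vehicle (log2 difference -2.23 ± 0.05, limma adjusted p = 3.57e-16), a difference larger in size than that of 99.5% of all genes. With MG132 it was 2.10-fold lower (-1.07 ± 0.05, limma adjusted p = 5.91e-12). MG132 raised it 2.58-fold in knockdown cells (1.37 ± 0.05, limma adjusted p = 1.2e-12), the 23rd highest fold change of the 19938 genes. In control cells it rose 1.15-fold (0.20 ± 0.05, limma adjusted p = 0.00171). The difference of the responses was 1.16 (95% interval 1.03 to 1.30, limma adjusted p = 1.29e-08).

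Dusp5, a nuclear phosphatase specific for ERK, moved in opposite directions in the lines. Its values were 10.85, 10.90, 10.95 and 10.83 in knockdown cells with MG132 and 10.93, 10.88, 10.82 and 10.95 in control cells with MG132. They were 10.73, 10.70, 10.69 and 10.67 in knockdown cells with vehicle and 11.33, 11.14, 11.24 and 11.19 in control cells with vehicle. The 2 groups with MG132 overlapped between those with vehicle, of which control cells were above and knockdown cells below. It rose by 0.19 ± 0.04 in knockdown cells (limma adjusted p = 0.0021) and fell by 0.33 on the log2 scale in control cells (limma SE 0.04, adjusted p = 8.54e-06), and the responses differed by 0.52 (95% interval 0.39 to 0.64). The lines differed by -0.53 ± 0.04 with vehicle (limma adjusted p = 2.19e-08). With MG132 the difference was -0.01 (95% interval -0.10 to 0.08, limma adjusted p = 0.871).

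Dusp6 encodes a cytoplasmic ERK phosphatase, and its transcript is widely used as a readout of ERK signalling. It read 9.83, 9.77, 9.90 and 9.73 in knockdown cells with MG132 and 10.29, 10.39, 10.33 and 10.25 in control cells with MG132. With vehicle it read 10.27, 10.18, 10.24 and 10.13 in knockdown cells and 11.33, 11.21, 11.32 and 11.37 in control cells. Control cells with vehicle stood above all others, control cells with MG132 overlapped knockdown cells with vehicle, and knockdown cells with MG132 were lowest. Dusp6 fell with MG132 in both lines, 1.32-fold in knockdown cells (log2 fold change -0.40 ± 0.05, limma adjusted p = 2.71e-06) and 1.99-fold in control cells (-0.99 ± 0.05, limma adjusted p = 6.37e-11). It was 1.42-fold lower in knockdown than in control cells with MG132 (-0.51 ± 0.05) and 2.15-fold lower with vehicle (-1.10 ± 0.05, limma adjusted p = 4.38e-12). The fall was smaller in knockdown cells, by 0.60 (95% interval 0.45 to 0.74, limma adjusted p = 2.13e-05).

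**Figure D2:**
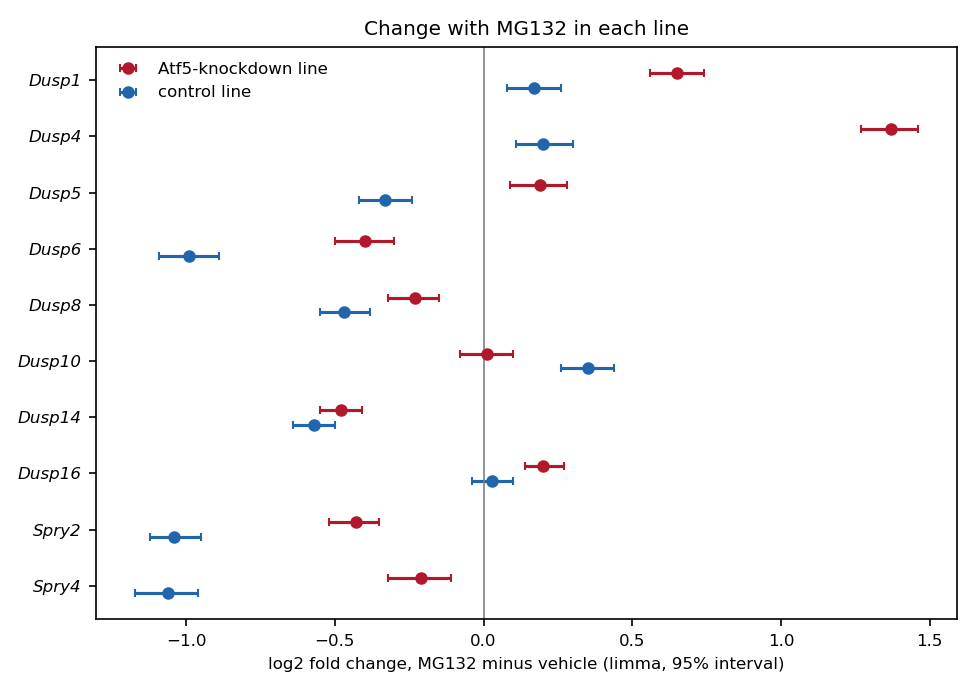
Log2 fold change with MG132 over vehicle (horizontal axis) for each gene in the Atf5-knockdown line (red) and the control line (blue), with 95% limma intervals. The point of the knockdown line is to the right of that of the control line for Dusp1, Dusp4, Dusp5, Dusp6, Dusp8, Dusp16, Spry2 and Spry4, to the left for Dusp10, and for Dusp14 the difference of 0.09 did not pass the test.

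The phosphatases that prefer JNK and p38 are Dusp8, Dusp10 and Dusp16. Dusp8 read 9.84, 9.81, 9.81 and 9.77 in knockdown cells with MG132, against 9.49, 9.44, 9.54 and 9.65 in control cells with MG132. With vehicle its values were 10.06, 10.01, 10.04 and 10.05 in knockdown cells, against 10.02, 10.02, 9.96 and 9.99 in control cells. The lines overlapped with vehicle, and with MG132 both were lower and control cells lowest. Dusp8 fell in knockdown cells (-0.23 ± 0.04, limma adjusted p = 0.000116) and in control cells (-0.47 ± 0.04, limma adjusted p = 5.19e-08), and the responses differed by 0.23 (95% interval 0.12 to 0.35). With vehicle the difference between the lines was 0.04 (95% interval -0.04 to 0.13, limma adjusted p = 0.466), and with MG132 it was 0.28 ± 0.04 (limma adjusted p = 1.84e-05). The second Dusp8 probe set, with a mean of 7.72, gave larger line differences. It changed by -0.20 ± 0.07 in knockdown cells and by -0.63 ± 0.07 in control cells, the lines differed by 0.59 ± 0.07 with MG132 and by 0.16 ± 0.07 with vehicle, and the responses differed by 0.43 ± 0.09 (limma adjusted p over all probe sets 0.0102).

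Dusp10, which removes phosphates from JNK and p38, was the 1 gene of the 10 that was called lower in the difference of the responses. It read 10.16, 10.12, 10.08 and 10.13 in knockdown cells with MG132 and 9.76, 9.82, 9.68 and 9.81 in control cells with MG132. With vehicle it read 10.05, 10.08, 10.13 and 10.20 in knockdown cells and 9.50, 9.38, 9.42 and 9.36 in control cells. Both groups of knockdown cells overlapped each other and lay above control cells, whose MG132 arrays were above their vehicle arrays. Dusp10 rose 1.28-fold in control cells (log2 fold change 0.35 ± 0.04, limma adjusted p = 3.9e-06). In knockdown cells its change was 0.01 (95% interval -0.08 to 0.10, limma adjusted p = 0.904). It was 1.28-fold higher in knockdown than in control cells with MG132 (0.35 ± 0.04, limma adjusted p = 3.05e-06) and 1.62-fold higher with vehicle (0.70 ± 0.04, limma adjusted p = 5.14e-10). The difference of the responses was -0.35 (95% interval -0.47 to -0.22, limma adjusted p = 0.00109).

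Dusp16, a phosphatase that prefers JNK, had the same order of groups as Dusp4, with smaller steps. Its values were 11.15, 11.21, 11.24 and 11.22 in knockdown and 11.41, 11.47, 11.42 and 11.38 in control cells with MG132. With vehicle they were 10.98, 11.00, 10.98 and 11.04 in knockdown and 11.37, 11.40, 11.37 and 11.42 in control cells. The control groups overlapped each other and lay above both knockdown groups, which did not overlap. It rose by 0.20 ± 0.03 in knockdown cells (limma adjusted p = 4.59e-05), and in control cells the change was 0.03 (95% interval -0.04 to 0.10, limma adjusted p = 0.517). The lines differed by -0.21 ± 0.03 with MG132 and by -0.39 ± 0.03 with vehicle (limma adjusted p = 2.06e-08). The responses differed by 0.17 (95% interval 0.08 to 0.27, limma adjusted p = 0.0142), and this call was lost without the 4 arrays lowest on the within-group gradient (0.15, limma adjusted p = 0.0833) and with median centring (0.168, limma adjusted p = 0.0635).

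Dusp14, a small atypical phosphatase without the kinase-binding domain of the others, fell in both lines. It read 11.54, 11.57, 11.56 and 11.52 in knockdown cells with MG132, against 11.33, 11.27, 11.29 and 11.40 in control cells with MG132. With vehicle it read 12.03, 12.00, 12.03 and 12.05 in knockdown cells, against 11.91, 11.92, 11.89 and 11.86 in control cells. The arrays with MG132 lay below those with vehicle, and knockdown cells above control cells in both treatments. The fall was 1.39-fold in knockdown cells (-0.48 ± 0.03, limma adjusted p = 3.8e-09) and 1.49-fold in control cells (-0.57 ± 0.03, limma adjusted p = 5.05e-10). The difference of these responses was 0.09 (95% interval -0.01 to 0.19, limma adjusted p = 0.218), which does not show that they were alike. The knockdown line was higher by 0.23 ± 0.03 with MG132 (limma adjusted p = 2.28e-05) and by 0.13 ± 0.03 with vehicle (limma adjusted p = 0.00309).

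The Sprouty genes Spry2 and Spry4, inhibitors of receptor signalling to ERK, fell with MG132 in both lines. Spry2 read 8.60, 8.54, 8.44 and 8.62 in knockdown cells with MG132 and 8.82, 8.92, 8.87 and 8.82 in control cells with MG132. With vehicle it read 9.03, 8.98, 8.98 and 8.94 in knockdown cells and 9.93, 9.87, 9.90 and 9.88 in control cells. No group overlapped another, and knockdown cells with vehicle averaged 0.12 above control cells with MG132. Its fall was 1.35-fold in knockdown cells (log2 fold change -0.43 ± 0.04, limma adjusted p = 1.53e-07) and 2.05-fold in control cells (-1.04 ± 0.04, limma adjusted p = 4.87e-12). The lines differed by -0.31 ± 0.04 with MG132 (limma adjusted p = 7.42e-06) and by -0.91 ± 0.04 with vehicle (limma adjusted p = 6.17e-12). The responses differed by 0.60 (95% interval 0.48 to 0.73).

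Spry4 read 8.69, 8.53, 8.78 and 8.67 in knockdown cells with MG132 and 8.49, 8.64, 8.62 and 8.65 in control cells with MG132. With vehicle the values were 8.83, 8.87, 8.96 and 8.87 in knockdown cells and 9.63, 9.70, 9.66 and 9.66 in control cells. The lines overlapped with MG132 and were apart with vehicle, where control cells were higher. Spry4 fell 1.16-fold in knockdown cells (-0.21 ± 0.05, limma adjusted p = 0.00198) and 2.09-fold in control cells (-1.06 ± 0.05, limma adjusted p = 5.03e-11). The responses differed by 0.85 (95% interval 0.70 to 1.00, limma adjusted p = 9.78e-07), the 31st highest of all genes, where Dusp4 was the 7th highest. With vehicle the lines differed by -0.78 ± 0.05 (limma adjusted p = 8.53e-10), and with MG132 by 0.07 (95% interval -0.04 to 0.17, limma adjusted p = 0.341).

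**Figure D3:**
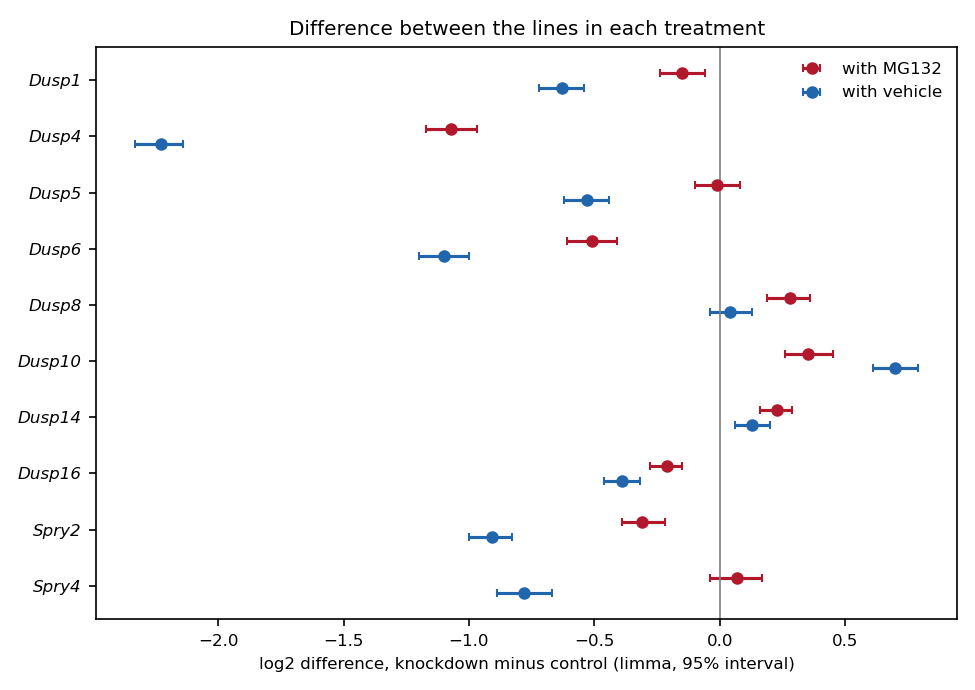
Log2 difference between the lines, knockdown minus control (horizontal axis), for each gene with MG132 (red) and with vehicle (blue), with 95% limma intervals. Dusp1, Dusp4, Dusp5, Dusp6, Dusp16, Spry2 and Spry4 were lower in the knockdown line with vehicle, and for each of these the value with MG132 is nearer to 0.

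Other genes of the pathway were counted in lists. The lists were chosen with earlier results of these data known, so their counts beside all genes are descriptive and lend no independent support. Of 20 genes that ERK signalling is known to induce, 13 had a higher and 2 a lower response in knockdown than in control cells, with a median difference of 0.32 against -0.01 over all genes. Over all genes 4.45% had a higher and 10.1% a lower response. With MG132 itself 6 of the 20 rose and 10 fell in knockdown cells, where 16.4% of all genes rose and 24.3% fell. In control cells 2 of the 20 rose and 12 fell, against 16.8% and 19.0% of all genes. Egr1, an immediate early transcription factor gene, was higher in knockdown than in control cells with vehicle (1.17 ± 0.05) and fell more there with MG132 (-2.26 ± 0.05 in knockdown and -1.42 ± 0.05 in control cells). Ier3, an immediate early survival gene, rose in both lines (1.19 ± 0.05 in knockdown and 0.66 ± 0.05 in control cells), and Ccnd1, which encodes cyclin D1, fell (-0.63 ± 0.03 in knockdown and -1.03 ± 0.03 in control cells). Etv1, a transcription factor gene, fell in both lines (-1.36 ± 0.07 in knockdown and -1.24 ± 0.07 in control cells), with a difference of the responses of -0.12 ± 0.09 that did not pass (limma adjusted p = 0.47). The list also holds Etv5, Lif and Hbegf, which are named because they were among the genes most correlated with Spry4 or Dusp6 over the arrays, so that a like course follows from the choice. Etv5, another transcription factor gene, changed by -0.37 ± 0.05 in knockdown and -1.12 ± 0.05 in control cells. The cytokine gene Lif changed by -0.35 ± 0.06 in knockdown and -1.05 ± 0.06 in control cells, and Hbegf, which encodes a ligand of the EGF receptor, by -0.35 ± 0.04 in knockdown and -0.69 ± 0.04 in control cells.

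**Figure D4:**
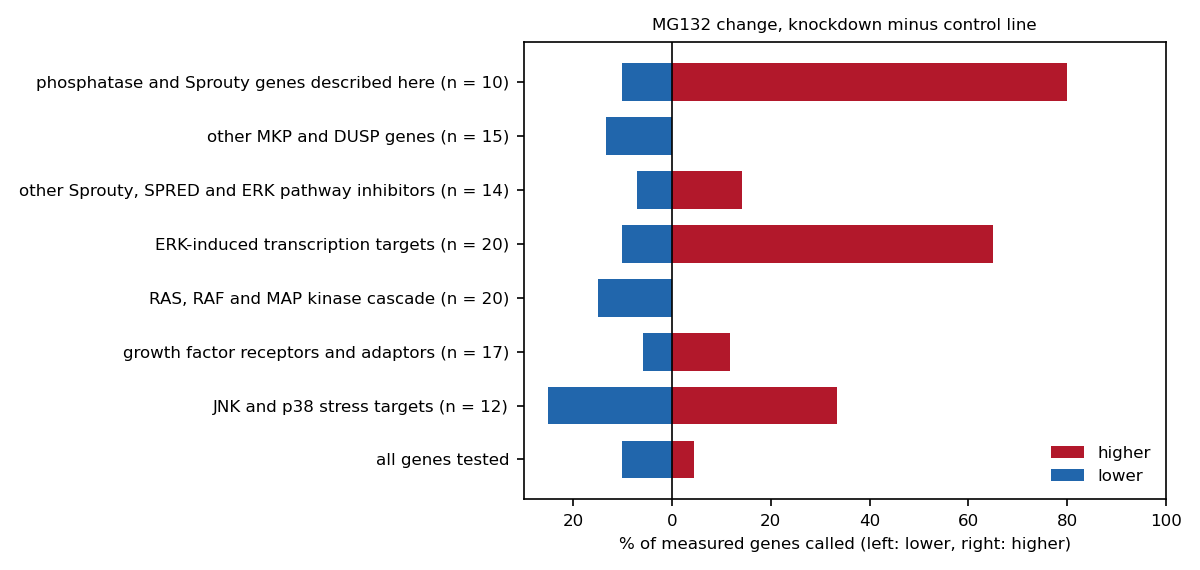
Share of the measured genes of each list whose MG132 change was called higher (red, right) or lower (blue, left) in knockdown than in control cells, in percent, beside all genes tested. Of the phosphatase and Sprouty genes described here 8 of 10 were called higher, and of the ERK-induced targets 13 of 20, where 4.45% of all genes were. The genes and lists were chosen with earlier results of these data known.

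Of 14 other inhibitors of the ERK pathway, 2 had a higher and 1 a lower response in knockdown cells, against 4.45% and 10.1% of all genes. Spry1, another Sprouty gene, fell by 0.16 ± 0.04 in knockdown and by 0.88 ± 0.04 in control cells, and the responses differed by 0.72 ± 0.06 (limma adjusted p = 1.64e-06). Errfi1, an inhibitor of the EGF receptor, fell by 0.15 ± 0.04 in knockdown and by 0.53 ± 0.04 in control cells. Il17rd, the inhibitor called lower, fell by 0.25 ± 0.05 in knockdown and rose by 0.21 ± 0.05 in control cells. Its responses differed by -0.46 ± 0.07 (limma adjusted p = 0.000435). For Spred3 and Lrig1 the responses differed by 0 ± 0.07 and 0.15 ± 0.05, which did not pass (limma adjusted p = 0.99 and 0.0529). Of 15 other dual specificity phosphatase genes 0 had a higher and 2 a lower response by limma, against 4.45% and 10.1% of all genes, and at an unadjusted p under 0.05 the counts were 1 and 3. Dusp9, a cytoplasmic ERK phosphatase like Dusp6, was higher in knockdown cells by 1.90 ± 0.05 with MG132 and by 1.78 ± 0.05 with vehicle, and Dusp18 by 1.44 ± 0.05 and 1.25 ± 0.05. Dusp22, an atypical phosphatase, was higher in knockdown cells by 0.97 ± 0.04 with MG132 and by 1.20 ± 0.04 with vehicle. Dusp9 and Dusp6, both cytoplasmic ERK phosphatase genes, thus differed between the lines in opposite directions.

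The kinases and receptors above these genes were measured too. Of the 26 genes listed for the RAS, RAF and MAP kinase cascade 20 were matched to a probe set, and the others were not analysed here. Of the 20, 0 had a higher and 3 a lower response in knockdown cells by limma, where 4.45% and 10.1% of all genes did. At an unadjusted p under 0.05 the counts were 2 and 5. With vehicle 4 of the 20 were higher and 8 lower in knockdown cells, where 21.5% and 17.9% of all genes were. Mapk12, a p38 kinase gene, was lower in knockdown cells by a log2 difference of -1.47 ± 0.05 with MG132 and -1.63 ± 0.05 with vehicle. Of 17 measured growth factor receptor and adaptor genes 2 had a higher and 1 a lower response, against the same 4.45% and 10.1% of all genes. Egfr, the EGF receptor gene, was lower in knockdown cells (-0.76 ± 0.05 with MG132 and -1.02 ± 0.05 with vehicle), and Fgfr2, a fibroblast growth factor receptor gene, was higher (1.09 ± 0.05 with MG132 and 1.21 ± 0.05 with vehicle). Of 12 JNK and p38 stress targets 4 had a higher and 3 a lower response, again beside 4.45% and 10.1% of all genes. At an unadjusted p under 0.05 these counts were 4 and 4, and those of the receptors and adaptors 5 and 2. For the ERK-induced genes they were 14 and 3, and for the other ERK pathway inhibitors 5 and 1. No share of all genes is given at the unadjusted threshold.

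The genes differed in which others they followed over the 16 arrays, which fall into 4 groups, so that a correlation mostly describes the group means. Dusp6 correlated with Spry2 at r = 0.98 and with Spry4 at 0.91, Dusp4 with Dusp16 at 0.98 and with Dusp1 at 0.93, and Dusp8 with Dusp14 at 0.96. Dusp10 ran against Dusp6 (r = -0.92). Among all genes the closest to Dusp6 were Ccn2, Itga3 and Hbegf (r = 0.993, 0.989 and 0.987), and those closest to Spry4 were Nes, Etv5 and Lif (0.978, 0.975 and 0.973). Closest to Dusp4 were Smim3, Sox4 and Eif1a (0.993, 0.989 and 0.984), and Eif1a and Smim3 were also the closest to Dusp16 (0.985 and 0.984). Dusp10 was most like Sun2, Ada and Ahr (0.987, 0.982 and 0.981), and Dusp14 most like Cox18, Myl12b and Chst1 (0.987, 0.987 and 0.985).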

How the data were processed

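The deposited values are log2 probe set intensities of 16 arrays. The submitters' processing notes name Partek and RMA, while versions, settings and genome build are not stated in these sources. Sample titles gave groups and replicate numbers. Separate plates, not separate cultures, are described, so p-values measure only how these plates vary, and that may be technical. Since RMA makes array distributions alike, a shift shared by most genes could not be seen.

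Of 35556 probe sets, 21789 carried 1 gene symbol and were kept as 19938 genes, each on its brightest probe set. In R 4.3.3, limma 3.58.1 fitted a mean per group over 16 arrays (lmFit and eBayes, two-sided tests, residual degrees of freedom 12, prior 4.12), and p-values were adjusted over all genes by Benjamini-Hochberg at 0.05. The fit was tested on simulated data. An exact permutation test served for single genes, and with 4 arrays a group its smallest p is 0.0286. The 10 genes, lists and motifs were chosen with earlier results of these data known. Non-members named are up to 4 genes per list with the smallest p, and the 3 genes most correlated with each gene. Besides these, Il17rd is named as the inhibitor called lower, and cell type markers describe the cells. Alternatives were quantile normalization again, median centring, a filter at the 25th percentile, the mean of probe sets, only the groups compared, a trended robust prior, array weights, a replicate block, and dropping single arrays; leaving out 4 arrays was added after seeing the data. Promoters are from RefSeq (GRCm38.p6). Figures were drawn with matplotlib 3.10.9 in Python 3.11.15.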

Additional observations from a re-analysis of the deposited data

Results flagged for a closer look

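The change with MG132 differed between knockdown and control cells by limma for 9 of the 10 genes: Dusp4 (log2 difference of the responses 1.16), Spry4 (0.85), Dusp6 (0.60), Spry2 (0.60), Dusp5 (0.52), Dusp1 (0.48), Dusp8 (0.23), Dusp16 (0.17) and Dusp10 (-0.35). Over all genes the test passed for 14.6%, with 4.45% higher and 10.1% lower. The 10 genes were chosen with earlier results of these data known, so this count is descriptive. Of the genes named from the pathway lists, the same test passed for Spry1 (0.72), Ier3 (0.53), Ccnd1 (0.40), Errfi1 (0.38), Egfr (0.26), Dusp22 (-0.23), Il17rd (-0.46) and Egr1 (-0.84). Etv5 (0.75), Lif (0.70) and Hbegf (0.34) passed too, but were named for their correlation with Spry4 or Dusp6, which lends no support. One array stood apart within its group: control MG132 array 3 read 12.39 for Dusp1, below the other 3 of its group. It was the 1 such value among 44 groups of 4 examined, and chance gives about 1 in 20.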

How the results depend on the processing

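Across 25 alternatives the 50 log2 differences of the 10 genes gave 1240 values, of which 1227 kept their direction and their side of the threshold. The counts of genes called stayed within 1.5 times under each alternative, between 8 and 9 of 10 in each comparison. Direction changed only for values near 0 that did not pass: with median centring Dusp10 in knockdown cells was -0.052, Dusp16 in control cells -0.023 and Dusp5 between the lines with MG132 0.002. Without the 4 arrays lowest on the within-group gradient Dusp10 was -0.014 and Dusp5 0.006. Leaving out single arrays gave -0.014 to 0.036 for Dusp10 and -0.038 to 0.006 for Dusp5 in the same comparisons. The 3 calls that were lost were those of Dusp1 and Dusp16 stated above. With the replicate block (paired numbers), 9 of the 10 genes were called for the difference of the responses and 2668 of all genes. The numbers were not taken to pair the samples, since not every pair of same-numbered arrays deviated together. Within a line 6 of 8 pairs correlated above 0.1 (range -0.04 to 0.33), and across the lines 4 of 16 did (range -0.50 to 0.40). These values do not settle whether the numbers pair the plates within a line. Of the 16 arrays 7 were closest to one of their own number.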
